A study of Mus musculus with 12 samples.

Results

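The tumour suppressor p53 and 7 genes that act with or downstream of it were followed in mouse hearts 9 h after transverse aortic constriction (TAC) or sham surgery: Trp53, which encodes p53, its inhibitor Mdm2, and Cdkn1a (p21), Ccng1, Gadd45a, Gadd45b, Gadd45g and Sesn1. The genes were taken by name, and Cdkn1a was chosen by its measured RPKM, which after TAC was higher in KI than in WT hearts, so every KI TAC against WT TAC value of the 8 genes is given below as a description without a p-value. All 8 were among the 13552 genes analysed here, and all 8 passed the filter that left 11240 genes for testing.

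Poly(A) RNA from the heart of 12 C57BL/6 mice (C57BL/6 J in the methods of the study) was sequenced, with 3 mice in each of 4 groups. WT sham and WT TAC mice were wild type, bought from a supplier, while KI sham and KI TAC mice carried the Bcl-xL S14A knock-in, a germline change of codon 14 from serine to alanine in every cell, with the selection cassette removed by CMV-Cre; the labels do not give zygosity, and the study states homozygous KI mice from the hypertrophy experiments onward. The mice were male and 8 to 10 weeks old when operated. Genotype and source of the mice cannot be told apart, levels per gene cannot check a codon change, and whole hearts cannot tell a change in cells from a change in RNA per cell.

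p53 is a transcription factor that cells hold at a low level because Mdm2, itself a p53 target, marks it for degradation. After DNA damage and several other stresses the protein is stabilised and raises transcription of genes that halt the cell cycle, among them Cdkn1a, an inhibitor of cyclin-dependent kinases, and Gadd45a. The Gadd45 genes and Cdkn1a are also immediate targets of stress kinases and growth signals that do not need p53, and in the adult heart, whose cardiomyocytes rarely divide, several of them are known as stress-response genes. Since p53 is regulated largely as a protein, the Trp53 transcript is no measure of p53 activity.

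The regions just before the transcription starts of Cdkn1a, Gadd45g and Gadd45b are shown because the first 2 were the genes past the test threshold after TAC and the third is a relative of Gadd45g that was not. Each is the 150 bases before a RefSeq start in the build GRCm38.p6, on the plus strand, with the capitals marking the p53 half-site consensus in Cdkn1a, the E-box CACGTG and the TATA box TATAAA in Gadd45g, and the TATA box in Gadd45b.
Cdkn1a, upstream start, chr17:29090829-29090978: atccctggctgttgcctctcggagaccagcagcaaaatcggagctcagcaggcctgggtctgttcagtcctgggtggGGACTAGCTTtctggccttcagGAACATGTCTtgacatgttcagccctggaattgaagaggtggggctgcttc
Gadd45g, chr13:51846525-51846674: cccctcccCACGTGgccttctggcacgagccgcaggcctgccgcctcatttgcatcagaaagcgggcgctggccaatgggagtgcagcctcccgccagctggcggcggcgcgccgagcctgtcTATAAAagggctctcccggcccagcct
Gadd45b, chr10:80929941-80930090: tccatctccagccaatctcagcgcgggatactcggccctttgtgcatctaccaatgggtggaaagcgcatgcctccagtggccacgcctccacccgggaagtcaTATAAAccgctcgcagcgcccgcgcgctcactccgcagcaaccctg

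The 8 genes have 10 windows in RefSeq, reaching from 250 bases before to 50 bases after a start, because Cdkn1a and Sesn1 each have 2 starts. Searched on both strands, the p53 half-site consensus, whose pattern reads the same on either strand, occurred in 6 of the 10 windows and in 8.36% of 32851 windows of all genes. The windows that held it were those of Trp53, Mdm2, Ccng1 and Gadd45a, the upstream start of Cdkn1a, with 2 matches, and the downstream start of Sesn1. No match was found in the windows of Gadd45b and Gadd45g. The E-box CACGTG was in 3 windows (Trp53, Gadd45b and Gadd45g; 7.15% of all windows) and the TATA box in 3 (Trp53, Gadd45b and Gadd45g; 13.6%). TGACG, the core of the cAMP response element, was in 2 (Mdm2 and Sesn1; 20.8%), while the whole element TGACGTCA, which contains that core (1.79%), and the AP-1 motif TGANTCA (7.81%) were in none of the 10. These are matches of letters and say nothing of binding.

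The inferred depth was 23650190 to 32455165 reads per heart, and the weakest value of the 8 genes, Gadd45a in WT TAC mouse 9, rested on 141 reads. All 3 KI TAC hearts were sequenced more deeply than the 3 WT TAC hearts (30298175 to 31676885 against 25715280 to 29608540 reads). The sum of 8 cardiomyocyte marker genes was 14523 to 24542 RPKM over all 12 hearts, in accord with the tissue label, and markers of lymphocytes (6) and atria (4) were not among the genes analysed here. Neutrophil markers, 3 of 5 in the table, with S100a8 at 0 in 1 WT sham heart and S100a9 at 0 in 1 KI sham heart, summed to 0.395 to 1.27 RPKM in the sham hearts and to 3.69 to 20.3 RPKM after TAC. Levels are given in RPKM, reads scaled to exon length and library depth, which is per length and so allows genes to be compared.

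Differences are on the log2(RPKM + 1) scale with their standard error (SE), and a gene was called where limma gave a Benjamini-Hochberg adjusted p under 0.05 over all 11240 genes. In WT hearts, 1 of the 8 genes, Gadd45g, was called after TAC, against 11.6% of all genes tested (6.96% higher and 4.6% lower). In KI hearts 2 of the 8, Gadd45g and Cdkn1a, were called, both higher, against 23.3% of all genes (8.57% higher and 14.7% lower). None of the 8 was called between the sham groups, against 0.0178% of all genes. The TAC hearts of both genotypes are also in the contrast that the choice of Cdkn1a rested on.

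**Figure D1:**
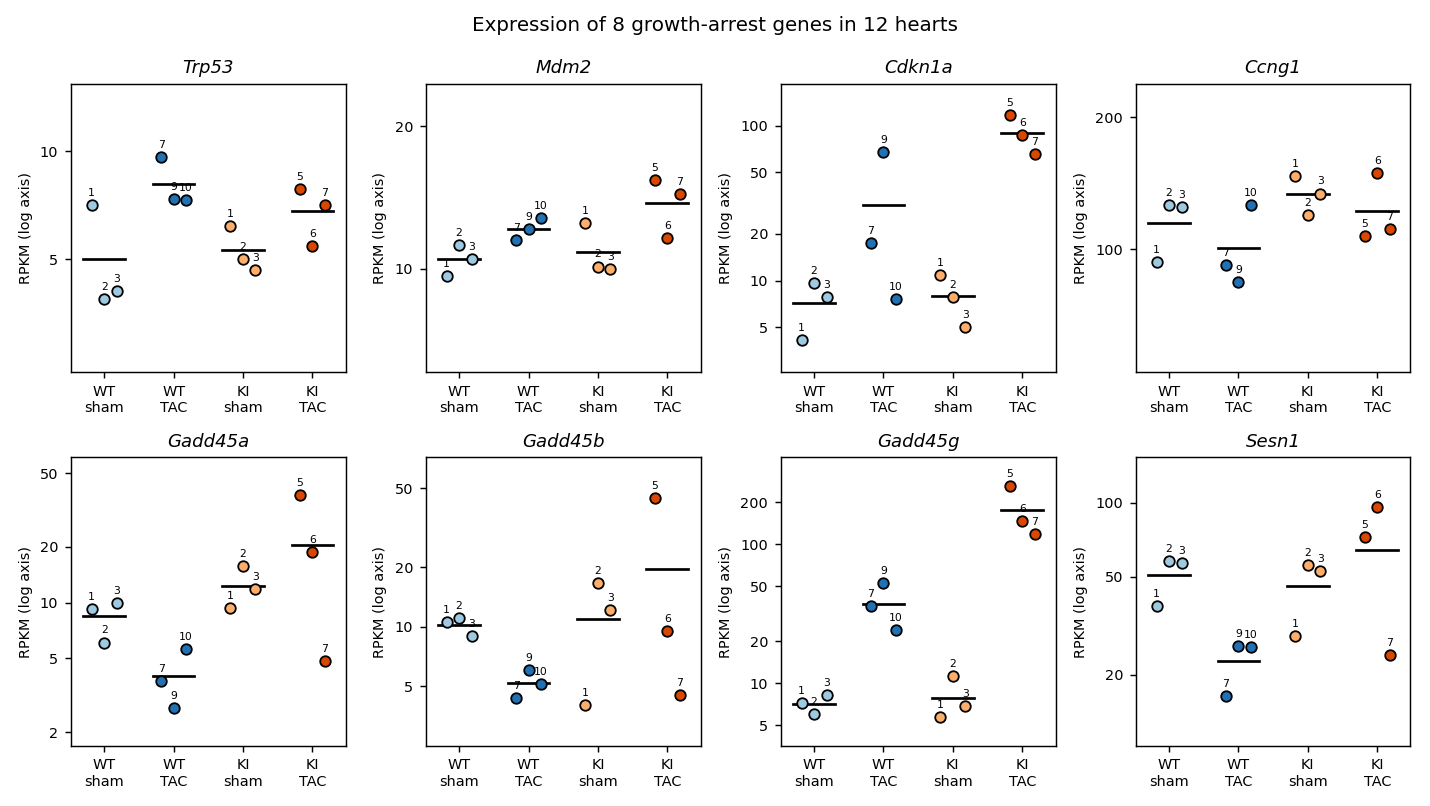
RPKM of the 8 genes in each heart, on log axes whose range differs by gene, for the 4 groups of 3 mice. Points are single mice with the mouse number above, and bars are group means. Gadd45g is above both sham groups in all 6 TAC hearts, Cdkn1a in WT TAC mice runs from 7.56 to 67.4 RPKM, and KI TAC mouse 7 lies below KI TAC mice 5 and 6 for Gadd45a, Gadd45b and Sesn1.

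Trp53 (ENSMUSG00000059552, GRCm38 chr11:69580359-69591873, plus strand) was among the lower of the 8 transcripts. It measured 7.10, 3.88 and 4.09 RPKM in the 3 WT sham hearts (mice 1, 2 and 3) and 9.65, 7.35 and 7.32 RPKM in the WT TAC hearts (mice 7, 9 and 10). Every WT TAC heart was above every WT sham heart, WT sham mouse 1 lying closest. The difference was 0.63 (SE 0.21, adjusted p = 0.0703, limma), and it passed the threshold only without WT sham mouse 1 (0.86, adjusted p = 0.0197). In KI sham hearts (mice 1, 2 and 3) Trp53 measured 6.2, 5.0 and 4.68 RPKM, and in KI TAC hearts (mice 5, 6 and 7) 7.85, 5.46 and 7.10 RPKM. These groups overlapped, and the difference of 0.31 (SE 0.21) had an adjusted p of 0.316.

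Mdm2 (ENSMUSG00000020184, chr10:117688875-117710758, minus strand), the ubiquitin ligase that holds p53 low, was the steadiest of the 8 genes, its highest heart 1.59 times its lowest. WT sham hearts had 9.66, 11.2 and 10.5 RPKM and WT TAC hearts 11.5, 12.1 and 12.8 RPKM. KI sham hearts had 12.5, 10.1 and 9.98 RPKM and KI TAC hearts 15.4, 11.6 and 14.4 RPKM. The WT groups did not overlap and the KI groups did, through KI TAC mouse 6 and KI sham mouse 1. The response to TAC was 0.20 (SE 0.16, adjusted p = 0.444) in WT and 0.32 (SE 0.16, adjusted p = 0.165) in KI hearts.

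Cdkn1a (ENSMUSG00000023067, chr17:29090976-29100727, plus strand), which stops cells before S phase by inhibiting cyclin-dependent kinases, rose in KI hearts after TAC. WT sham hearts had 4.10, 9.59 and 7.82 RPKM and WT TAC hearts 17.6, 67.4 and 7.56 RPKM. WT TAC mouse 9 stood well above the other two, and mouse 10 lay within the sham range. The WT response was 1.51 (SE 0.56, adjusted p = 0.0958); it was 2.19 and called (adjusted p = 0.0105) without WT TAC mouse 10, and 0.69 (adjusted p = 0.309) without WT TAC mouse 9. KI sham hearts had 10.9, 7.84 and 5.0 RPKM and KI TAC hearts 117, 86.6 and 65.7 RPKM. No KI TAC heart came near the sham range, and the ratio of the means, 89.9 ± 25.9 to 7.91 ± 2.95 RPKM (SD, n = 3), was 11.4. The difference was 3.37 (SE 0.56, adjusted p = 0.00104), the 29th highest of 11240 genes, and stayed between 3.11 and 3.60 when any 1 mouse was left out. The KI TAC hearts are also in the contrast by which Cdkn1a was chosen, so this p-value and rank are not independent of that choice.

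Between the TAC groups, which is the contrast known when Cdkn1a was chosen, the means were 89.9 RPKM in KI and 30.9 RPKM in WT hearts. The ranges met at WT TAC mouse 9 (67.4 RPKM) and KI TAC mouse 7 (65.7 RPKM), so the groups overlapped. The log2 difference was 2.0. It became 2.81 when WT TAC mouse 9 was left out and 1.31 when mouse 10 was. The difference between the KI and WT responses was 1.86, which holds the same contrast and is likewise given with no test. It ran from 1.175 to 2.674 with 1 mouse left out.

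A gene on the minus strand, 1700023B13Rik (ENSMUSG00000117050, chr17:29093416-29094461), lies inside Cdkn1a and covers its downstream start; it was looked at after its values were known. Its reads numbered 2.53% to 12.8% of those of Cdkn1a. It measured 1.28 to 3.29 RPKM in the 6 sham hearts, 3.16, 9.75 and 1.54 RPKM in WT TAC and 14.5, 7.45 and 7.00 RPKM in KI TAC hearts, and was called in KI TAC against KI sham (1.63, adjusted p = 0.0151; not called without KI sham mouse 2, KI sham mouse 3 or KI TAC mouse 5). The libraries keep strand, but whether the counting used it is not given in the sources used here, so reads of this pair may be mixed.

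Gadd45g (ENSMUSG00000021453, chr13:51846678-51848468, plus strand), like its relatives a small stress-induced protein that binds Cdk1 and cyclin B1 and activates the kinase MTK1 (Map3k4), rose after TAC in both genotypes. Its level was 7.22, 6.02 and 8.20 RPKM in WT sham hearts and 35.8, 52.3 and 24.1 RPKM in WT TAC hearts. It measured 5.69, 11.2 and 6.83 RPKM in KI sham and 263, 147 and 118 RPKM in KI TAC hearts. All 6 TAC hearts were above all 6 sham hearts, and every KI TAC heart was above every WT TAC heart.

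The means rose from 7.15 ± 1.09 to 37.4 ± 14.1 RPKM in WT hearts, a ratio of 5.23, and from 7.91 ± 2.92 to 176 ± 76.3 RPKM in KI hearts, a ratio of 22.3 (SD, n = 3). The log2 differences were 2.18 (SE 0.32, adjusted p = 0.0011) and 4.28 (SE 0.32, adjusted p = 1.07e-05), the latter the 8th highest of 11240 genes in KI hearts. Both calls were made with any 1 mouse left out, with differences of 1.91 to 2.45 in WT and 3.95 to 4.53 in KI hearts. The TAC groups differed by 2.19, given as a description.

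The interaction of genotype and surgery asks whether the response differed between KI and WT hearts. It holds the KI TAC against WT TAC contrast, so no interaction p-value of these genes is independent of the choice of the set. The interaction was 2.10 for Gadd45g (SE 0.46, unadjusted p = 0.000439, adjusted p = 0.0988). It was not called with all 12 mice and was called without WT TAC mouse 9 (2.37, adjusted p = 0.0215) or KI TAC mouse 7 (2.34, adjusted p = 0.0373). Across all 11240 genes limma called 0% for the interaction, while 1668 genes had an unadjusted p under 0.05. Of the 7 genes other than Cdkn1a, 2 were among these, Gadd45g and Sesn1, and limma-voom on the recovered reads also called none of them.

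**Figure D2:**
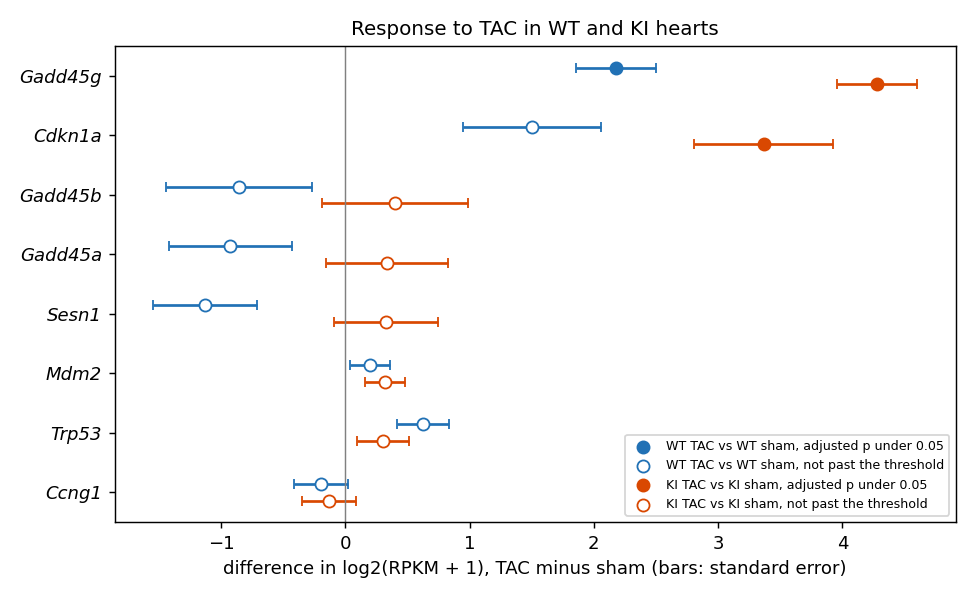
Difference between TAC and sham hearts on the log2(RPKM + 1) scale for the 8 genes, WT in blue and KI in orange; bars are standard errors of the fit across all genes and filled circles have an adjusted p under 0.05. Gadd45g is filled in both genotypes (2.18 and 4.28) and Cdkn1a in KI only (3.37, against 1.51 in WT), whereas Gadd45a, Gadd45b and Sesn1 lie below 0 in WT and above 0 in KI hearts without passing the threshold.

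Gadd45a (ENSMUSG00000036390, chr6:67035096-67037457, minus strand), the Gadd45 gene best known as a p53 target, was called in neither genotype. Its level was 9.26, 6.09 and 9.93 RPKM in WT sham hearts and 3.77, 2.70 and 5.60 RPKM in WT TAC hearts. Every WT TAC heart was below every WT sham heart, with a difference of -0.92 (SE 0.49, adjusted p = 0.239). KI sham hearts had 9.37, 15.8 and 11.8 RPKM and KI TAC hearts 38, 18.7 and 4.84 RPKM. KI TAC mouse 7 was below all KI sham hearts and the other two were above them. The difference in KI hearts was 0.34 (SE 0.49, adjusted p = 0.656), which became -0.29 without KI TAC mouse 5 and 1.08 (adjusted p = 0.0319) without KI TAC mouse 7. The interaction was 1.26 (SE 0.70, adjusted p = 0.407), 0.64 without KI TAC mouse 5 (adjusted p = 0.605) and 2.01 without KI TAC mouse 7 (adjusted p = 0.0455).

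Gadd45b (ENSMUSG00000015312, chr10:80930073-80932204, plus strand), known for its induction by NF-kB and TGF-beta signals, was called in neither genotype either. WT sham hearts had 10.5, 11 and 8.99 RPKM and WT TAC hearts 4.36, 6.02 and 5.13 RPKM. The WT groups did not overlap, yet the difference of -0.86 (SE 0.59) had an adjusted p of 0.363, in a fit whose spread is shared with the KI hearts. KI sham hearts had 3.99, 16.6 and 12.2 RPKM and KI TAC hearts 44.9, 9.52 and 4.53 RPKM. Both KI groups were widely spread and KI TAC mouse 5 alone was above all the sham hearts. The KI difference was 0.40 (SE 0.59, adjusted p = 0.656), turning to -0.46 without KI TAC mouse 5 and -0.14 without KI sham mouse 1, and the interaction was 1.26 (SE 0.83, adjusted p = 0.48). The latter was 0.40 without KI TAC mouse 5, 0.72 without KI sham mouse 1 and 1.92 without KI TAC mouse 7, and was called in none of these.

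Gadd45g was the largest part of the family in every TAC heart and not in the sham hearts. Its share of the summed RPKM of Gadd45a, Gadd45b and Gadd45g was 26.8%, 26.1% and 30.2% in WT sham and 29.8%, 25.7% and 22.1% in KI sham hearts. It was 81.5%, 85.7% and 69.2% in WT TAC and 76.0%, 84.0% and 92.7% in KI TAC hearts. The ranges of the share did not overlap between TAC and sham hearts in either genotype and did overlap between WT TAC and KI TAC. The sum itself was 19.0 to 43.6 RPKM in the 6 sham hearts, 34.8 to 61.0 RPKM in WT TAC and 128 to 346 RPKM in KI TAC hearts.

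**Figure D3:**
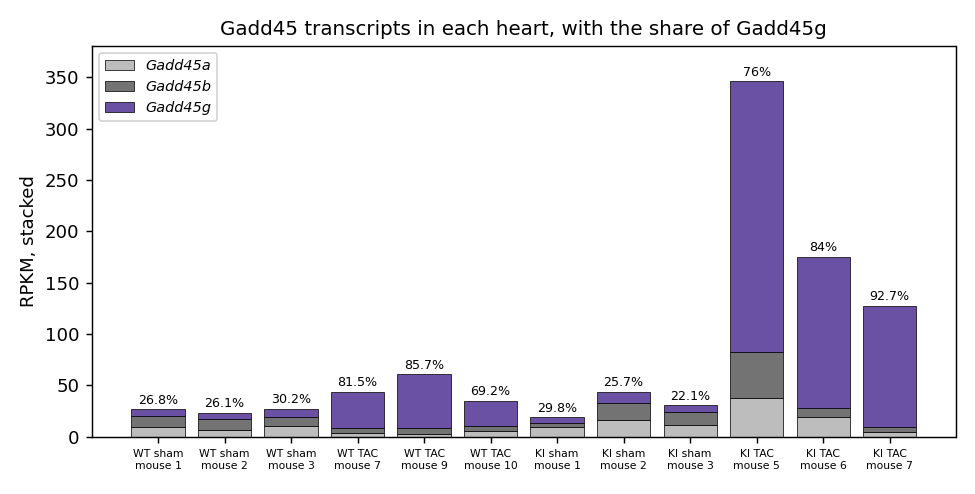
Summed RPKM of Gadd45a (light grey), Gadd45b (dark grey) and Gadd45g (purple) in each of the 12 hearts, as stacked bars from 0; the number above a bar is the share of Gadd45g in percent. The share is 22.1% to 30.2% in sham and 69.2% to 92.7% in TAC hearts, and the 3 KI TAC bars, at 346, 176 and 128 RPKM, are the tallest.

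Sesn1 (ENSMUSG00000038332, chr10:41809935-41908424, plus strand), a sestrin that restrains mTORC1, was one of the more abundant of the 8 transcripts. WT sham hearts had 38.1, 58.2 and 56.8 RPKM and WT TAC hearts 16.4, 26.1 and 25.9 RPKM, with no overlap. The difference of -1.13 (SE 0.42) had an adjusted p of 0.0952, and of 0.0226 without KI TAC mouse 7, which enters only through the shared spread. KI sham hearts had 28.6, 55.9 and 52.8 RPKM and KI TAC hearts 72.6, 95.8 and 24 RPKM. KI TAC mice 5 and 6 were above and mouse 7 below all KI sham hearts. The KI difference was 0.33 (SE 0.42, adjusted p = 0.604), -0.064 without KI TAC mouse 6. The interaction was 1.46 (SE 0.59, adjusted p = 0.278), and 2.04 without KI TAC mouse 7 (adjusted p = 0.0427).

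Ccng1 (ENSMUSG00000020326, chr11:40748552-40755311, minus strand), cyclin G1, a p53 target that recruits the phosphatase PP2A to Mdm2, was the most abundant of the 8 in 10 of the 12 hearts, Gadd45g being above it in KI TAC mice 5 and 7. WT sham hearts had 93.6, 126 and 125 RPKM and WT TAC hearts 92.3, 84.1 and 126 RPKM. KI sham hearts had 147, 120 and 134 RPKM and KI TAC hearts 107, 149 and 111 RPKM. The groups overlapped in both genotypes. Responses to TAC were -0.20 (SE 0.22, adjusted p = 0.585) in WT and -0.13 (SE 0.22, adjusted p = 0.696) in KI hearts; median-ratio scaling turned the latter to 0.036.

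WT TAC and WT sham hearts did not overlap for 6 of the 8 genes, 3 higher (Trp53, Mdm2, Gadd45g) and 3 lower (Gadd45a, Gadd45b, Sesn1), against 35.1% of all genes tested. KI TAC and KI sham hearts did not overlap for 2 (Gadd45g, Cdkn1a), against 38.3%. With 3 mice against 3 an exact two-sided permutation test cannot go below p = 0.1. The median difference of the 8 genes was 0.001 in WT and 0.33 in KI hearts, beside medians over all genes of 0.04 and -0.10.

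In sham hearts the KI and WT groups overlapped for all 8 genes, against 3.27% of all genes without overlap. The differences ran from -0.19 for Sesn1 to 0.50 for Gadd45a, with SE of 0.16 to 0.59 and an adjusted p of 1 for each. None of the 8 had an unadjusted p under 0.05, limma-voom called none, and 37 of 11240 genes had such a p.

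Between the TAC groups 7 of the 8 genes were higher in KI hearts on average. The differences were 2.19 for Gadd45g, 2.0 for Cdkn1a, 1.76 for Gadd45a, 1.27 for Sesn1, 1.18 for Gadd45b, 0.29 for Ccng1, 0.17 for Mdm2 and -0.22 for Trp53, beside a median of -0.12 over all genes. That median was -0.00038 after quantile normalization and 0.03 after median-ratio scaling, under which none of the 8 changed sign. Gadd45g alone had no overlap, against 29.5% of all genes, and nothing is read from this count because the contrast was used in choosing the set. Of all genes tested 11% were called between the TAC groups (2.92% higher and 8.13% lower in KI), the background for the lists below. Without KI TAC mouse 5, the differences of Gadd45a and Gadd45b were 1.13 and 0.32, and without KI TAC mouse 7 that of Sesn1 was 1.85. With 1 mouse left out in turn, the ranges were 1.134 to 2.504 for Gadd45a, 0.315 to 1.842 for Gadd45b and 0.878 to 1.853 for Sesn1. They were 0.138 to 0.457 for Ccng1, 0.09 to 0.277 for Mdm2 and -0.321 to -0.095 for Trp53.

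Of 29 other genes that p53 is known to activate, 24 were tested; 2 (8.33%) were called after TAC in WT hearts, beside 11.6% of all genes, and 6 (25%) in KI hearts, beside 23.3%. In WT TAC hearts 2 rose: Btg2 (1.67, adjusted p = 0.0116), an antiproliferative gene, and Gdf15 (2.47, adjusted p = 0.037), a stress cytokine. In KI TAC hearts 4 rose, among them Btg2 (3.29, adjusted p = 0.000103) and the stress kinases Plk3 (1.64, adjusted p = 0.00211) and Plk2 (0.95, adjusted p = 0.0423). With 1 mouse left out Plk2 ran from 0.472 to 1.233. The other that rose was Aen, a nuclease (0.51, adjusted p = 0.0413), named after its value was seen. In the same hearts 2 fell, Steap3 (-1.46, adjusted p = 0.000599) and the DNA repair gene Ddb2 (-0.52, adjusted p = 0.0115). The list had a median difference of 0.23 in WT and 0.03 in KI hearts. The count of 2 in WT hearts was 1 (Btg2) with limma-voom or without WT sham mouse 2 or 3, WT TAC mouse 7 or 9 or KI sham mouse 3, and 4 without WT TAC mouse 10 or KI TAC mouse 5. That of 6 in KI hearts was 4 in a fit of only the KI hearts and 4 to 6 with any 1 mouse left out. The death gene Bax, also named after its values were seen, was called in neither.

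Btg2 had means of 10.1 ± 1.75 RPKM in WT sham, 37.1 ± 19.2 in WT TAC, 11.8 ± 4.90 in KI sham and 125 ± 54.1 in KI TAC hearts (SD, n = 3). Between KI TAC and WT TAC hearts Btg2 (1.77, adjusted p = 0.0131) and the death receptor Fas (0.84, adjusted p = 0.0481) were higher and Steap3 was lower (-0.88, adjusted p = 0.0257), and none of the list was called for the interaction or in sham hearts. A fit of only the KI TAC and WT TAC hearts called none of Btg2, Fas and Steap3. Ddb2 reached 1 RPKM only in sham hearts (mean 1.17 RPKM in KI sham, 0.517 RPKM in KI TAC), so its call is not independent of the filter. With any 1 mouse left out, the calls of Btg2, Plk3, Steap3 and Ddb2 after TAC were made each time. Those of Gdf15, Plk2, Aen and Fas were lost without 6, 7, 9 and 8 of the 12 mice in turn, those of Gdf15 and Fas also with limma-voom (adjusted p = 0.0524 and 0.0517), that of Btg2 between the TAC groups without WT TAC mouse 7, and that of Steap3 there without WT TAC mouse 7, WT TAC mouse 10 or KI TAC mouse 6.

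Of 18 regulators of p53 and DNA damage signalling genes, 15 were tested. None was called in WT TAC hearts, beside 11.6% of all genes (1 had an unadjusted p under 0.05; limma-voom called none, and quantile normalization, a fit of only the WT groups and leaving out KI TAC mouse 7 each called 1, H2ax, named after its value was seen). In KI hearts 2 (13.3%) were called after TAC, beside 23.3% of all genes, a count of 1 to 5 over the other settings, the 5 with median-ratio scaling, and of 0 to 3 with 1 mouse left out. There the ubiquitin ligase Rchy1 (0.56, adjusted p = 0.0352) and the deacetylase Sirt1 (0.45, adjusted p = 0.0454) rose, calls lost without 5 and 8 of the 12 mice. After TAC, Trp53bp1, a DNA break response protein, was lower in KI than in WT hearts (-0.50, adjusted p = 0.0429), which neither quantile normalization (adjusted p = 0.101) nor median-ratio scaling (adjusted p = 0.0871) called and which was lost without 8 of the 12 mice in turn. The medians were 0.10 in WT and -0.01 in KI hearts.

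Of 20 CDK inhibitors, G1 cyclins and Rb and E2F genes, relatives and partners of Cdkn1a at the G1 checkpoint, 14 were tested; 2 were called in WT hearts (11.6% of all genes) and 6 in KI hearts, 5 lower and 1 higher, where 14.7% of all genes were called lower and 8.57% higher. In WT TAC hearts the inhibitor Cdkn1c (p57) fell (-1.21, adjusted p = 0.00564) and E2f3, a transcription factor of S phase entry, rose (0.63, adjusted p = 0.0117). In KI TAC hearts 5 fell, led by the cyclin Ccnd2 (-1.01, adjusted p = 0.0104), Cdkn1c (-0.85, adjusted p = 0.0195), the Rb relative Rbl2 (-0.79, adjusted p = 0.00949) and Cdkn1b (p27; -0.60, adjusted p = 0.0237), and E2f3 rose (0.62, adjusted p = 0.00689). The fifth, Ccnd3 (-0.56, adjusted p = 0.0222; named after its value was seen), and Cdkn1c kept their sign but were not called under median-ratio scaling. With 1 mouse left out in turn, Cdkn1c in WT and Ccnd2 and E2f3 in KI hearts were called each time, while E2f3 in WT hearts was lost without WT sham mouse 2 or 3, and Rbl2, Cdkn1c, Cdkn1b and Ccnd3 in KI hearts were lost without 1, 2, 3 and 3 of the mice. E2f1 was lower in KI TAC than WT TAC hearts (-0.94, adjusted p = 0.0285; a call lost when mouse 7 or 10 of WT TAC, or mouse 5 or 6 of KI TAC, was left out, and in a fit of only these 2 groups). The list had a median of 0.08 after TAC in WT and -0.38 in KI hearts.

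Of 19 S phase and mitosis genes 8 reached the filter, and limma called none in any comparison, nor did limma-voom, beside 11.6% of all genes after TAC in WT hearts, 23.3% in KI hearts and 11% between the TAC groups. An unadjusted p under 0.05 was given to 1 in WT TAC against sham, 0 in KI TAC against sham and between sham groups and 2 for the interaction, and a fit of only KI TAC and KI sham hearts called 2 (Mcm2 and Mcm5). The median difference was 0.25 in WT and -0.36 in KI hearts, and after TAC all 8 averaged lower in KI than in WT hearts (median -0.43, 3 with an unadjusted p under 0.05). Without WT TAC mouse 9, the heart with the highest Cdkn1a of its group, 5 were called lower in KI TAC hearts, the replication helicase genes Mcm2 to Mcm6, 3 were called in WT hearts after TAC (Mcm3, Mcm5, Mcm6) and 1 for the interaction (Mcm5). Without WT TAC mouse 10 the calls were all lower after TAC, 1 in WT (Rrm2) and 2 in KI hearts (Mcm2, Mcm7). In the WT TAC hearts Rrm2 measured 0.183, 0.449 and 4.2 RPKM, so a single heart was far above the others. These genes were named after their values were seen.

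Of 12 genes of the p38 and JNK kinase cascades, among them the Gadd45 partner Map3k4, 11 were tested. None was called in WT TAC hearts, beside 11.6% of all genes (2 had an unadjusted p under 0.05, and limma-voom called none). In KI TAC hearts 5 were called (45.5%, beside 23.3% of all genes), 2 higher and 3 lower, where 8.57% of all genes were called higher and 14.7% lower. Map2k3 (0.83, adjusted p = 0.0188) and Map2k4 (0.47, adjusted p = 0.0495) rose and Map2k6 (-0.79, adjusted p = 0.00351), Mapk14 (-0.75, adjusted p = 0.0187), which encodes p38 alpha, and Map3k4 itself (-0.74, adjusted p = 0.012) fell. Map2k6 reached 1 RPKM only in sham hearts (mean 1.18 RPKM in KI sham, 0.259 RPKM in KI TAC), so its call is not independent of the filter. It was called with any 1 mouse left out, and without KI sham mouse 3 it was the only call of the list. Those of Map2k3, Map2k4, Mapk14 and Map3k4 were lost without 3, 9, 3 and 2 of the mice. The call of Mapk14 was lost under median-ratio scaling (adjusted p = 0.0548). Map3k4 was lower in KI TAC than WT TAC hearts (-0.62, adjusted p = 0.0488), a call lost without any of 9 mice in turn, under quantile normalization (adjusted p = 0.0938) and under median-ratio scaling (adjusted p = 0.137). The median was -0.03 in WT and -0.16 in KI hearts.

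**Figure D4:**
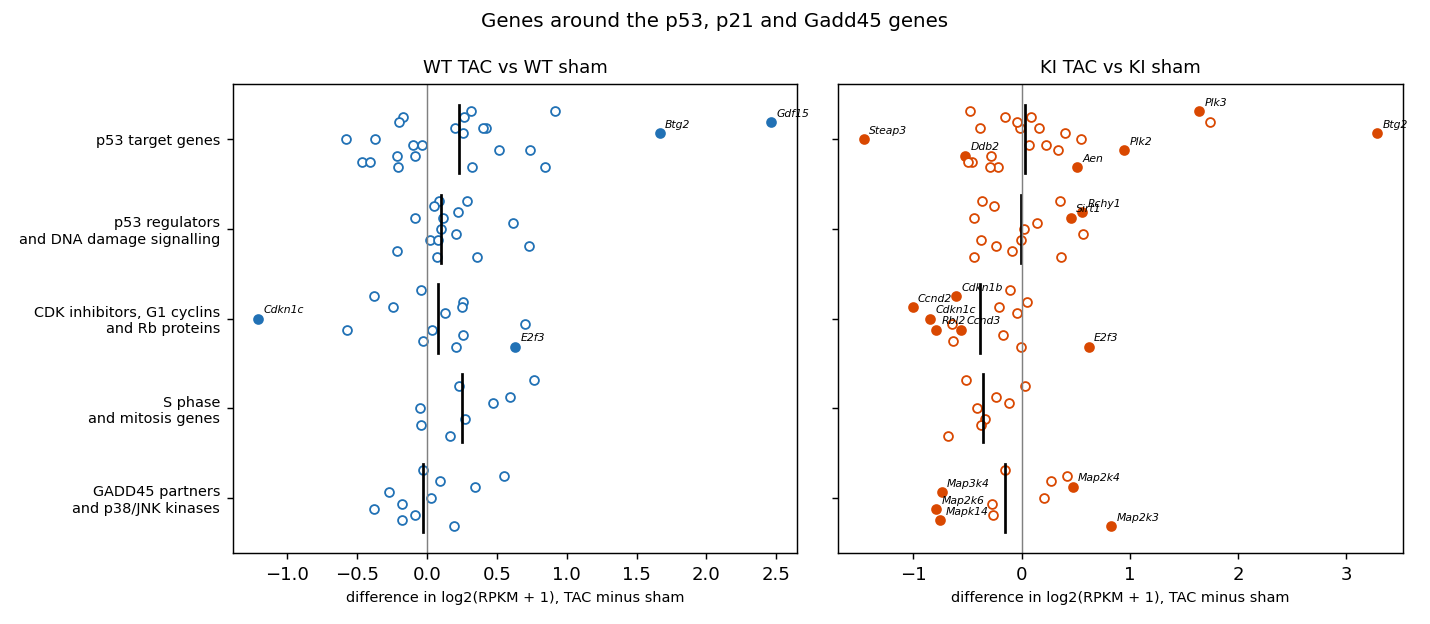
Difference between TAC and sham on the log2(RPKM + 1) scale for the tested genes of 5 lists, WT on the left and KI on the right, with x axes of different range. Each circle is a gene, filled and named where the adjusted p is under 0.05, spread vertically for legibility, and black lines are list medians. Btg2 (3.29) and Steap3 (-1.46) are the outermost points in KI hearts, while the filled points of the CDK list lie below 0 but for E2f3.

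Of 8 paralogs of the 8 genes 6 were tested. None was called higher after TAC, beside 6.96% of all genes in WT and 8.57% in KI hearts, while 2 were called lower in WT hearts (4.6% of all genes) and 3 in KI hearts (14.7%). Cdkn1c, from the same inhibitor family as Cdkn1a, averaged 9.18 and 3.50 RPKM in WT sham and TAC hearts and 10.3 and 5.08 RPKM in KI sham and TAC hearts. Cdkn1b averaged 9.18, 6.84, 8.92 and 5.59 RPKM in the same order and was called in KI hearts only. Ccng2, the paralog of Ccng1, averaged 2.78, 1.52, 2.91 and 1.73 RPKM and fell in both genotypes (-0.59, adjusted p = 0.0179 in WT, lost without WT sham mouse 1 or 3 or WT TAC mouse 7; -0.52, adjusted p = 0.0199 in KI, lost without KI sham mouse 2 or 3 or KI TAC mouse 5). The sestrins Sesn2 (2.78 to 4.38 RPKM on average) and Sesn3 (1.01 to 1.72 RPKM) and the Mdm2 relative Mdm4 (1.94 to 2.24 RPKM) were called in no comparison. Trp63, a relative of Trp53, stayed under the filter, with means of 0.0803 to 0.133 RPKM, and Trp73 was not analysed here.

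By the root mean square difference over the 12 hearts after each gene's own mean was subtracted, the genes most like Cdkn1a were Adamts1 (0.39), Plscr1 (0.44) and Btg2 (0.47), beside a spread of Cdkn1a around its own mean of 1.58, all on the log2 scale. Those most like Gadd45g were the small heat shock gene Hspb1 (0.35), the muscle gene Klhl41 (0.42) and the growth factor Hbegf (0.44), beside its own spread of 1.83. Adamts1 averaged 11.7 RPKM in sham and 51.6 RPKM in TAC hearts of WT mice and 12.8 and 185 RPKM in those of KI mice, and Hspb1 averaged 166 and 793 RPKM against 180 and 2892 RPKM. The 12 hearts hold the contrast that the choice of Cdkn1a rested on, so these likenesses are descriptions.

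Markers of other cells moved with some of these values. Within each TAC group the summed neutrophil markers stood in the same order as Cdkn1a and Gadd45g: 9.87, 5.37 and 3.69 RPKM in WT TAC mice 9, 7 and 10, and 20.3, 11.3 and 4.18 RPKM in KI TAC mice 5, 6 and 7, the latter also the order of Gadd45a and Gadd45b. In WT TAC mice 9, 7 and 10 Gadd45a stood in the reverse order, at 2.70, 3.77 and 5.60 RPKM, and Gadd45b in another, at 6.02, 4.36 and 5.13 RPKM. S100a9 and Csf3r were called in both genotypes after TAC and S100a8 in KI hearts. These genes reached 1 RPKM only in TAC hearts, where they were high, so their calls after TAC are not independent of the filter. None of the neutrophil markers was called between the TAC groups (1 had an unadjusted p under 0.05, and limma-voom called none). Fibroblast markers (6 of 6) summed to 134 to 610 RPKM in WT TAC hearts, highest in mouse 10, to 92.2 to 168 RPKM in KI TAC and to 113 to 221 RPKM in sham hearts. Macrophage and monocyte markers (5 of 6) summed to 48.3 to 88.3 RPKM in WT TAC, again highest in mouse 10, 38.7 to 50.2 RPKM in KI TAC and 36.7 to 49.7 RPKM in sham hearts. Cd68 (1.22, adjusted p = 0.00601) and Adgre1 (0.83, adjusted p = 0.0409) were higher after TAC in WT hearts, the latter by 0.493 to 1.017 with 1 mouse left out. Csf1r was lower after TAC in KI hearts (-0.53, adjusted p = 0.0419). There Cd68 (0.65) and C1qa (0.44) averaged higher and Adgre1 lower (-0.50), none of these called. After TAC, Adgre1 (-1.15, adjusted p = 0.0135) and Csf1r (-0.91, adjusted p = 0.00913) were lower in KI than in WT hearts. In that comparison 1 of the 4 tested markers, C1qa (0.08), averaged higher. Lum, of the fibroblast markers, fell in KI hearts, and Cspg4, of the pericyte markers, was higher after TAC in WT hearts and lower in KI than in WT TAC hearts. Of the cardiomyocyte markers, Myh6 and Mb were lower after TAC in WT hearts, and Pln fell in KI hearts after TAC. Tnni3, Myl2 and Mb, 3 of 8, were higher in KI TAC than WT TAC hearts, where 11% of all genes were called. Actc1 (-0.24), Pln (-0.28) and Ryr2 (-0.20) averaged lower there. The summed markers overlapped, at 14523 to 24216 RPKM in WT TAC and 17973 to 24542 RPKM in KI TAC hearts. With quantile normalization the calls of Myh6, Mb, Tnni3 and Myl2 were lost, and with median-ratio scaling that of Pln. The calls of Lum, of Csf1r in KI hearts after TAC and of Cspg4 between the TAC groups were lost with quantile normalization (adjusted p = 0.0706, 0.0541 and 0.0656) and with median-ratio scaling (adjusted p = 0.0629, 0.0893 and 0.0914). With 1 mouse left out in turn, Cd68, S100a8 and, in KI hearts, S100a9 were called each time, while every other marker call named here was lost without 1 to 10 of the mice. Sums for endothelial markers (6 of 6) were 184 to 272 RPKM and for smooth muscle and pericyte markers (5 of 5) 122 to 247 RPKM over the 12 hearts. Red cell markers (5 of 5) summed to 145 to 171 RPKM in WT sham and, without overlap, 74.8 to 114 RPKM in WT TAC hearts, and to 134 to 244 RPKM in KI sham and 97.7 to 257 RPKM in KI TAC hearts. All 5 averaged lower after TAC in both genotypes and, after TAC, higher in KI than in WT mice; limma called 0 of them in any comparison, as did limma-voom, and an unadjusted p under 0.05 was given to 2 in WT TAC against sham, 1 in KI TAC against sham, 2 between the TAC groups and 0 between sham groups and for the interaction. The part of these cells, and of the deeper sequencing of KI TAC hearts, in the results was not tested.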

How the data were processed

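RNA from 12 hearts was sequenced as strand-specific poly(A) libraries. Per the labels, the submitters' processing notes name Trimmomatic 0.39, HISAT2 2.2.1, HTSeq 0.6.1, edgeR 3.18.1 and the build GRCm38. The deposited table holds RPKM per gene and mouse, normalised by the authors to exon length and library depth; the unit was read from its values. Since RPKM are no counts, limma 3.58.1 (lmFit, eBayes with trend; R 4.3.3) was fitted on log2(RPKM + 1) for genes with at least 1 RPKM in 3 or more mice, with 4 groups sharing 1 estimate of the spread. The edgeR of the authors was not applied. P-values were Benjamini-Hochberg adjusted over 11240 genes, and the script was tested on simulated data. Replicates are separate mice.

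Reads per heart were recovered from the steps of low values (under 30 reads), 96.3% to 97.8% of which came out whole within 0.02 of a read; they served for read numbers and a limma-voom alternative, and cover counting error only. The 8 genes and all lists were chosen with earlier results of these data known. From each list up to 5 called genes per comparison were named, largest difference first, plus all paralogs; Cdkn1a and Gadd45g were each given the 3 genes most like them. Promoters came from RefSeq (GRCm38.p6). Alternatives were a pseudocount of 0.1, no filter, quantile normalization, median-ratio scaling, limma-voom, a fit of only the groups compared, a replicate block and leaving out each mouse. Protein sequences were not used here.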

Additional observations from a re-analysis of the deposited data

How the results depend on the processing

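Gadd45g after TAC in both genotypes and Cdkn1a in KI hearts were called under every alternative run. All alternatives for Cdkn1a use KI TAC hearts, by which it was chosen, so its calls are not independent of that choice. A fit of only the 2 groups compared called 4 of the 8 genes in WT hearts (Gadd45g, Gadd45a, Gadd45b and Sesn1). With 1 mouse left out, the number called was 1 to 2 in WT TAC against sham, 2 to 3 in KI TAC against sham, 0 in sham hearts and, of the 7 genes other than Cdkn1a, 0 to 3 for the interaction, the 3 without KI TAC mouse 7 (Gadd45a, Gadd45g and Sesn1). The interaction holds the KI TAC against WT TAC contrast, so its calls are not independent of the choice of the set. Ccng1 changed sign to 0.036 in KI TAC against sham with median-ratio scaling and to -0.061 for the interaction with quantile normalization; the cause was not tested.

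Leaving out 1 mouse turned small differences: those in KI TAC against sham ranged from -0.29 to 1.08 for Gadd45a, -0.46 to 1.06 for Gadd45b and -0.064 to 0.91 for Sesn1; those between sham groups from -0.035 to 0.33 for Trp53, -0.05 to 0.098 for Mdm2, -0.17 to 0.39 for Cdkn1a, -0.45 to 0.46 for Gadd45b, -0.16 to 0.27 for Gadd45g and -0.38 to 0.11 for Sesn1; the Ccng1 interaction from -0.083 to 0.24.

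The sham groups share the replicate numbers 1, 2 and 3, and the TAC groups share only the number 7, too few for a paired fit. Same-numbered sham mice had correlations of -0.22, -0.30 and 0.44, and not every mouse correlated best with its own number. With so few mice these values do not show a pairing and cannot exclude one. With the replicate block 0 of the 8 genes were called between the sham groups, as without it.

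The share of calls that were higher moved with the scaling: 60.2%, 36.8% and 26.4% in WT TAC against sham, KI TAC against sham and KI TAC against WT TAC as deposited, 48.1%, 48.3% and 46% after quantile normalization and 50.2%, 55% and 58.6% after median-ratio scaling.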
